A study of Homo sapiens with 6 samples.

Results

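The DNA replication and S phase genes are a list of 43 genes that load, start and run the replication fork, supply its nucleotides or set the passage from G1 into S phase. They were taken by gene symbol, with no threshold on their values, out of 53826 entries in the deposited tables, and all 43 were among the 13181 genes with a level above 2 TPM in at least 1 library, TPM being a transcript level scaled for transcript length and library size. The study transduced A549, a human lung adenocarcinoma cell line, with a retroviral pMXs vector that carried either TIPARP, a mono-ADP-ribosyltransferase, or green fluorescent protein (GFP), and compared the stable lines A549-TIPARP and A549-GFP by mRNA sequencing of 3 libraries each. Both lines therefore share the A549 background and the transduction and differ in the transgene. Each line stands for its transduction as a whole, and the gene-level values do not separate transgene transcripts from endogenous TIPARP. The sample titles number the libraries of each line Exp1, Exp2 and Exp3, which are called replicates 1, 2 and 3 here. The labels do not say whether these were separate cultures, or whether a number marks the same day or batch in both lines, so the p-values measure only the spread between these libraries, which may be technical.

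Before a cell copies its DNA, the origin recognition complex together with CDC6 and CDT1 loads the MCM2 to MCM7 helicase at origins, a step called licensing. At the start of S phase, MCM10, CDC45 and the GINS complex turn the loaded helicase into a moving one, and polymerases, primase, the PCNA clamp with its RFC loader, the RPA single-strand binding complex, FEN1 and LIG1 copy and join the strands. Many of these genes are transcribed by E2F factors, which are held back by RB1 in quiescent cells and freed by cyclin-dependent kinases in dividing ones, so their transcripts are widely read as a sign of cycling cells.

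Values of the libraries of a line are given throughout in the order of replicates 1, 2 and 3. TIPARP was listed at 6.79, 11.4 and 3.68 TPM in A549-GFP and at 131, 90.5 and 123 TPM in A549-TIPARP. The lines did not overlap for TIPARP, with a log2 difference of 3.90 ± 0.34 (SE, n = 3 per line, limma adjusted p = 0.0125). In 17 other limma fits the adjusted p of TIPARP ran from 0.0019 to 0.513 and passed in 9. With A549-TIPARP replicate 3 and A549-GFP replicate 2 both left out, the log2 difference was 4.18 with a limma adjusted p of 0.287, so that the call was lost while the difference was not smaller. The A549 epithelial markers were all detected, 10 of 10. Of the endothelial markers 7 of 8 were at the floor of the tables in every library, including PECAM1, CDH5 and VWF, and the summed level of that list, which came from EGFL7, was 14.7 to 35.3 TPM in A549-GFP and 24.1 to 37.4 TPM in A549-TIPARP. Of the mesenchymal markers 6 of 8, among them DCN and PDGFRB, were at the floor in every library, with sums of 1.09 to 1.44 and 1.64 to 2.56 TPM. Of the leukocyte markers, PTPRC and CD3E were at the floor in every library, and CD14, LYZ and CD68, mainly CD68, summed to 31.9 to 79.0 and 32.9 to 48.5 TPM. The tables list no log2 value below 0, so the floor is 1 TPM. They hold no read counts, so the depth behind each value is unknown.

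A549-GFP replicate 2 stood apart from the other libraries over all analysed genes, and A549-TIPARP replicate 3 was set apart mainly by the members themselves. Over all analysed genes, A549-GFP replicate 2 had a root mean square deviation of 0.621 on the log2 scale from the mean of its line, against 0.36 and 0.40 for A549-GFP replicates 1 and 3 and 0.185 to 0.330 for the A549-TIPARP libraries, of which replicate 3 was the highest. The summed level of the epithelial markers was 22731 TPM in A549-GFP replicate 2 and 33503 to 37456 TPM in the other libraries, although 4 of the 10 markers (AKR1C1, CDH1, CLDN4 and KRT7) were above the mean of the line there. EGFL7 was at 14.7, 35.3 and 16.1 TPM in A549-GFP and at 24.1, 24.6 and 37.4 TPM in A549-TIPARP, so it was highest within each line in the library where the members, as shown next, were lowest. The detected leukocyte markers CD14, LYZ and CD68 were likewise higher in these libraries, by a median of 1.23 on the log2 scale in A549-GFP replicate 2 and of 0.49 in A549-TIPARP replicate 3 relative to the mean log2 TPM of the other libraries of the line. The entry MIR6723 took 5.52% of the TPM of A549-GFP replicate 2, 9.78% of that of A549-TIPARP replicate 3 and 5.95% to 7.93% elsewhere. The results on the replication genes are therefore given with and without these libraries. The part of these features in the results was not tested.

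The replication genes differed more between libraries of a line than between the lines. No member passed the test between A549-TIPARP and A549-GFP, in which the wide spread left differences of 2-fold undetectable for many members. In A549-GFP replicate 2, 36 of 43 members were past 2-fold lower than the mean log2 TPM of the line's other libraries. In A549-TIPARP replicate 3, 32 members were. Over all 13181 analysed genes the counts were 658 and 404. For 38 members the difference was the lower one in A549-GFP replicate 2. The summed level of the 43 members was 4115, 1186 and 3191 TPM in A549-GFP and 3227, 3428 and 1520 TPM in A549-TIPARP. The lowest library of each line was thus below the other 4 libraries, and the lines overlapped. In bulk RNA, fewer cells in S phase and less RNA of these genes per cell cannot be told apart.

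**Figure D1:**
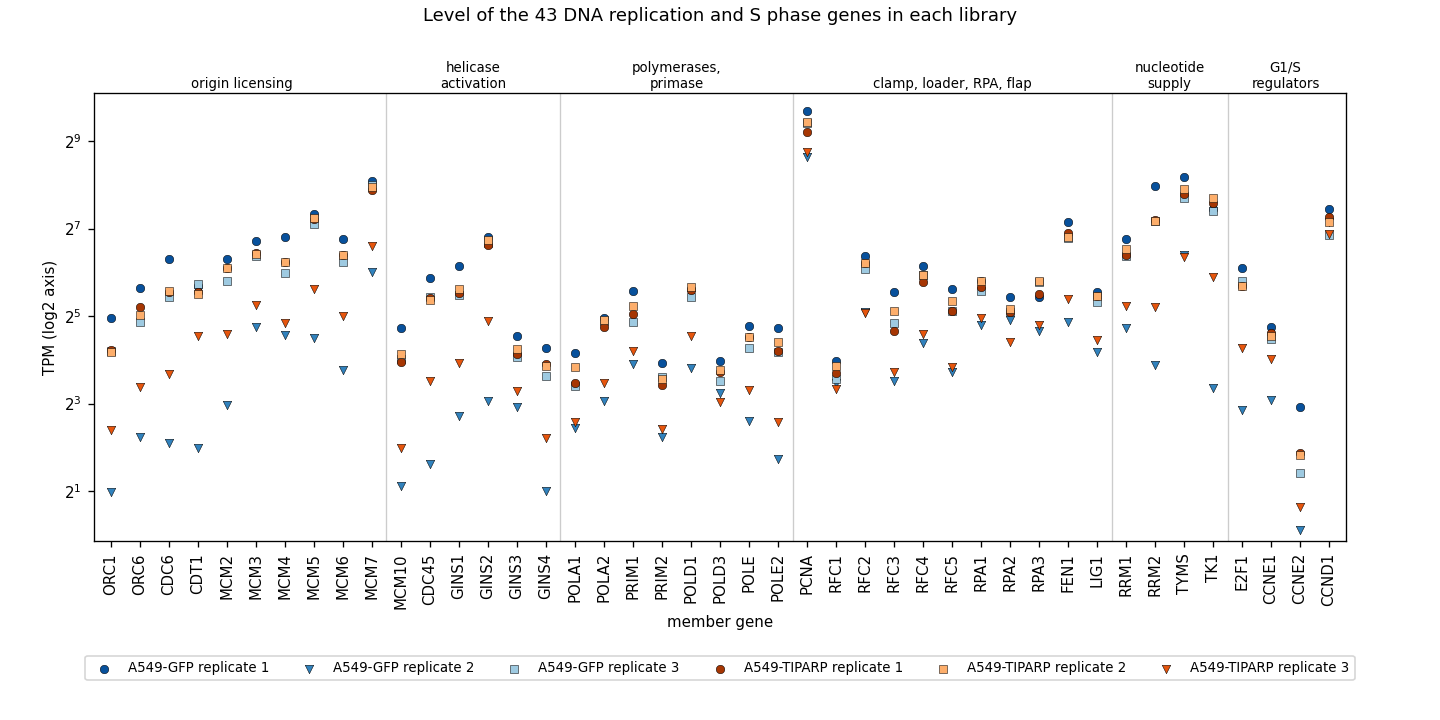
Level of each of the 43 genes in TPM (log2 axis) in the 6 libraries, grouped by role. Blue symbols are A549-GFP and orange to brown symbols are A549-TIPARP; the triangles of A549-GFP replicate 2 lie lowest for 37 genes, and those of A549-TIPARP replicate 3 lie below the other A549-TIPARP symbols for all 43.

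A549-GFP replicate 2 was the lowest of all 6 libraries for 37 of 43 members (86.0%), and for 13.1% of all analysed genes. A549-TIPARP replicate 3 was the lowest library for 5 of the remaining members (POLD3, RFC1, RFC2, RPA2 and TYMS), and A549-GFP replicate 3 was the lowest for CCND1. Within its own line, A549-TIPARP replicate 3 was the lowest library for 43 of 43 members, compared with 46.9% of all analysed genes. A549-GFP replicate 1 was the highest of all libraries for 39 members, compared with 19.2% of all analysed genes, A549-TIPARP replicate 2 for POLD1, RPA3 and TK1, and A549-GFP replicate 3 for CDT1.

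Expressed as the deviation from the mean of the line, the median member stood at 0.83, -1.23 and 0.45 on the log2 scale in A549-GFP. The corresponding medians over all analysed genes were -0.02, 0.25 and -0.23. In A549-TIPARP the median member stood at 0.40, 0.47 and -0.84, against 0.01, 0.03 and -0.03 over all analysed genes. In A549-GFP replicate 2 the median member was thus below and the median analysed gene above the mean of the line, where 3668 of 13181 analysed genes were below it. The median-ratio shift of that library, which moves all genes alike, was 0.27. The median member ranked at percentile 79.4, 38.3 and 78.6 of the analysed genes by TPM in A549-GFP, and at percentile 78.2, 78.5 and 61.4 in A549-TIPARP. A ranking within a library does not depend on how that library was scaled.

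**Figure D2:**
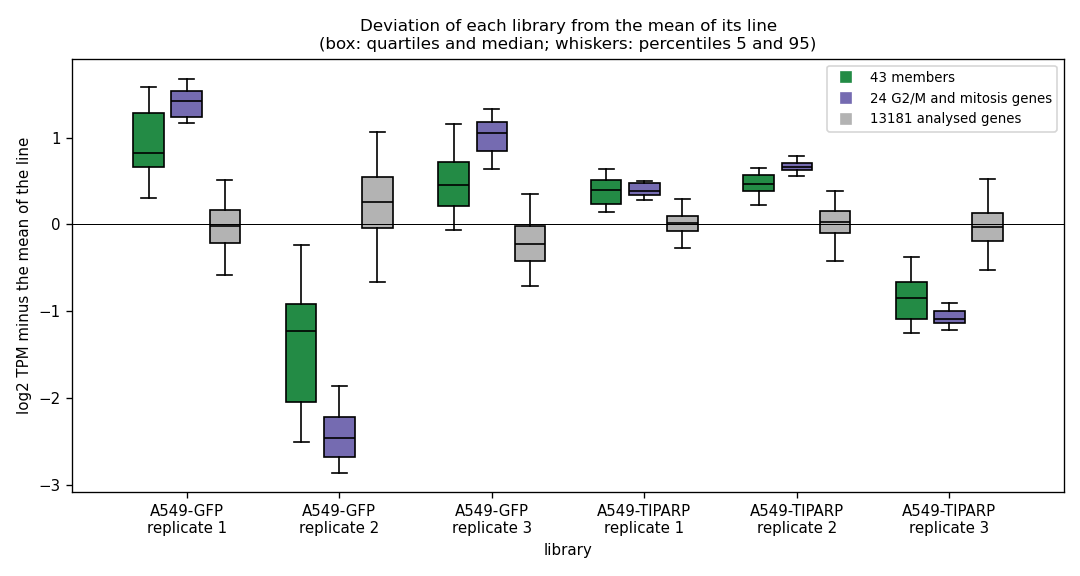
Deviation of each library from the mean of its line (log2 TPM) for the 43 members, 24 G2/M and mitosis genes and the 13181 analysed genes. Boxes give the median and quartiles over genes and whiskers the percentiles 5 and 95; the member medians of -1.23 in A549-GFP replicate 2 and -0.84 in A549-TIPARP replicate 3 are the only member medians below 0.

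The spread between libraries of a line was wide for these genes. The median SD of log2 TPM was 1.08 within A549-GFP and 0.73 within A549-TIPARP over the members, against 0.39 and 0.19 over all analysed genes. From the lowest to the highest library, the median member spanned 4.10-fold and the median analysed gene 1.87-fold. The members themselves ranged from CCND1, which spanned 1.53-fold, and RFC1, which spanned 1.54-fold, to CDC45, which spanned 18.9-fold, and TK1, which spanned 20.5-fold.

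By role, the median span was 11.4-fold for the 6 helicase activation genes, 9.01-fold for the 10 licensing genes, 8.30-fold for the 4 nucleotide supply genes and 4.75-fold for the 4 G1/S regulators. It was 3.46-fold for the 8 polymerase and primase genes and 2.46-fold for the 11 genes of the clamp, its loader, the RPA complex and flap processing. The order of these groups is a description, since genes of a group are not replicates.

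Origin licensing genes were among the most variable members. The highest and the lowest member of each role are named here by their geometric mean TPM over the 6 libraries, and the order within single libraries can differ. MCM7, the most abundant subunit of the helicase here, was at 274, 64.5 and 253 TPM in A549-GFP and at 236, 247 and 96.9 TPM in A549-TIPARP. ORC1, the ATPase subunit of the origin recognition complex and the lowest of this group, was at 31.0, 1.96 and 18.4 TPM in A549-GFP and at 18.7, 18.2 and 5.28 TPM in A549-TIPARP. For both genes A549-GFP replicate 2 was lowest and A549-TIPARP replicate 3 second lowest, and the lines overlapped. CDC6 and CDT1, the helicase loaders, were picked after their values had been seen. CDC6 was at 78.5, 4.29 and 43.6 TPM in A549-GFP and at 46.7, 47.6 and 12.8 TPM in A549-TIPARP. CDT1 was at 51.6, 3.95 and 52.8 TPM in A549-GFP and at 46.5, 45.6 and 23.3 TPM in A549-TIPARP. The loaders thus lost more in A549-GFP replicate 2 than the helicase subunits did: relative to the geometric mean of the other A549-GFP libraries, CDC6 was 13.6-fold and CDT1 13.2-fold lower there, and the subunits ranged from 3.50-fold (MCM3) to 8.52-fold (MCM2) lower. In A549-TIPARP replicate 3, in contrast, CDT1 was 1.98-fold lower than the geometric mean of the other A549-TIPARP libraries, the smallest difference of the 10 licensing genes, and CDC6 was 3.68-fold lower, the largest.

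The helicase subunits kept part of their order. MCM7 was the highest and MCM2 the lowest of MCM2 to MCM7 by TPM, a unit that is scaled for transcript length, in all 6 libraries, and the ratio of MCM7 to MCM2 was 3.50, 8.28 and 4.51 in A549-GFP and 3.45, 3.61 and 4.0 in A549-TIPARP. MCM5 was second in 5 libraries and below MCM3 and MCM4 in A549-GFP replicate 2. The origin recognition subunits changed order: ORC6 was the highest of ORC1 to ORC6 in 4 libraries, and ORC2 was the highest, with ORC1 the lowest, in A549-TIPARP replicate 3 and A549-GFP replicate 2. The subunits ORC2, ORC3, ORC4 and ORC5, which are not members and were picked after their values had been seen, spanned 1.83-fold to 2.04-fold between libraries, compared with 15.8-fold for ORC1 and 10.6-fold for ORC6.

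Genes that activate the helicase had the widest median span. GINS2, a subunit of the GINS complex and the highest of this group, was at 112, 8.32 and 102 TPM in A549-GFP and at 98.1, 106 and 29.4 TPM in A549-TIPARP. GINS4, another subunit of that complex and the lowest of the group, was at 19.2, 2.01 and 12.3 TPM in A549-GFP and at 14.9, 14.6 and 4.63 TPM in A549-TIPARP. Both had the same low libraries as the licensing genes. CDC45, which bridges GINS and the helicase and was picked after its values had been seen, was at 58.2, 3.08 and 43 TPM in A549-GFP and at 42.4, 41.5 and 11.4 TPM in A549-TIPARP, 16.2-fold lower in A549-GFP replicate 2 than the geometric mean of the other A549-GFP libraries. GINS3 was the exception of the group, with a span of 3.11-fold. GINS2 was the highest and GINS4 the lowest of the GINS subunits in all 6 libraries, although GINS3 exceeded GINS1 in A549-GFP replicate 2 and not elsewhere.

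The polymerase and primase genes varied less. POLD1, the catalytic subunit of polymerase delta and the highest of this group, was at 49.1, 14 and 43.4 TPM in A549-GFP and at 48.0, 50.7 and 23.5 TPM in A549-TIPARP. PRIM2, the large subunit of primase and the lowest by geometric mean, was at 15.3, 4.75 and 12.2 TPM in A549-GFP and at 10.8, 11.8 and 5.32 TPM in A549-TIPARP. A549-GFP replicate 2 and A549-TIPARP replicate 3 were again the lowest libraries, and the lines overlapped. Within the group the span ran from 1.92-fold for POLD3, an accessory subunit of polymerase delta, to 8.06-fold for POLE2, an accessory subunit of polymerase epsilon, whose catalytic partner POLE spanned 4.52-fold. PRIM1 shares exon sequence on the same strand with NACA, which reached 435 TPM, so its value is uncertain.

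The clamp and its partners included the most abundant member, PCNA, and RFC1, which had the second smallest span of the list after CCND1. PCNA, the sliding clamp, was at 827, 401 and 681 TPM in A549-GFP and at 591, 689 and 429 TPM in A549-TIPARP, and was the highest member in all 6 libraries. RFC1, the large subunit of the clamp loader, was at 15.6, 11.1 and 11.8 TPM in A549-GFP and at 12.9, 14.4 and 10.1 TPM in A549-TIPARP. The low libraries were the same for PCNA, but RFC1 in A549-GFP replicate 2 was 1.23-fold below the geometric mean of the other libraries of its line. The loader subunits kept the order RFC2, RFC4, RFC5, RFC3 and RFC1 from high to low in all 6 libraries, while their spans differed, from 1.54-fold for RFC1 to 4.10-fold for RFC3. The RPA subunits spanned 2.03-fold (RPA1), 2.03-fold (RPA2) and 2.21-fold (RPA3), and the strand-joining ligase LIG1 spanned 2.58-fold. FEN1, the flap endonuclease, spanned 4.83-fold, but it overlaps exons of FADS2 on the same strand, which reached 378 TPM, and RFC4 overlaps EIF4A2 on the opposite strand, which reached 330 TPM. Whether the counting used the strand is not given in the sources used here, so these values are uncertain.

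The nucleotide supply genes showed the largest single difference between libraries. TK1, the thymidine kinase of the salvage pathway, was picked after its values had been seen and was at 176, 10.2 and 169 TPM in A549-GFP and at 191, 209 and 59.6 TPM in A549-TIPARP. RRM2, the small subunit of ribonucleotide reductase that is present mainly in S phase, was at 249, 14.8 and 143 TPM in A549-GFP and at 146, 144 and 37.0 TPM in A549-TIPARP. Each was lowest in A549-GFP replicate 2, by 16.9-fold for TK1 and 12.8-fold for RRM2 relative to the geometric mean of the other A549-GFP libraries, and second lowest in A549-TIPARP replicate 3. TYMS, thymidylate synthase and the highest of this group, was at 289, 84.3 and 207 TPM in A549-GFP and at 220, 241 and 81.5 TPM in A549-TIPARP. RRM1, the large subunit of ribonucleotide reductase and the lowest by that mean, was at 108, 26.3 and 83.2 TPM in A549-GFP and at 84.7, 91.9 and 37.4 TPM in A549-TIPARP. RRM1 was not the lowest in every library, since TK1 and RRM2 were below it in A549-GFP replicate 2 and RRM2 in A549-TIPARP replicate 3. TYMS was the member of this group whose lowest library was A549-TIPARP replicate 3, although by little, and it overlaps ENOSF1 on the opposite strand, which reached 28.1 TPM.

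The makeup of the reductase transcripts differed between libraries. The ratio of RRM2 to RRM1 in TPM was 2.31, 0.563 and 1.72 in A549-GFP and 1.72, 1.57 and 0.987 in A549-TIPARP. RRM2B, an alternative small subunit that p53 can induce and no member of the list, was at 13.7, 44.3 and 11.4 TPM in A549-GFP and at 12.1, 15.1 and 14.5 TPM in A549-TIPARP. A549-GFP replicate 2 was thus the only library in which RRM2B exceeded RRM1, with a ratio of 1.68 against 0.127 to 0.388 in the others.

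The G1/S regulators did not move alike. E2F1, the transcription factor, was at 68.8, 7.22 and 55.7 TPM in A549-GFP and at 51.3, 51.4 and 19.3 TPM in A549-TIPARP. CCND1, which encodes cyclin D1 and is the highest of this group, was at 175, 142 and 115 TPM in A549-GFP and at 153, 142 and 117 TPM in A549-TIPARP. E2F1 therefore shared the low libraries of the replication fork genes, while CCND1 in A549-GFP replicate 2 lay between the other libraries of its line. CCNE2, one of the E-type cyclins and the lowest member in all 6 libraries, was at 7.54, 1.07 and 2.68 TPM in A549-GFP and at 3.63, 3.55 and 1.56 TPM in A549-TIPARP. CCNE1, the other E-type cyclin, spanned 3.20-fold. RB1, which binds E2F1 and is not a member, was at 16.6, 13.1 and 9.79 TPM in A549-GFP and at 10.3, 12.1 and 9.64 TPM in A549-TIPARP. The ratio of E2F1 to RB1 was 0.552 in A549-GFP replicate 2, 2.00 in A549-TIPARP replicate 3 and 4.14 to 5.69 in the other libraries.

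**Figure D3:**
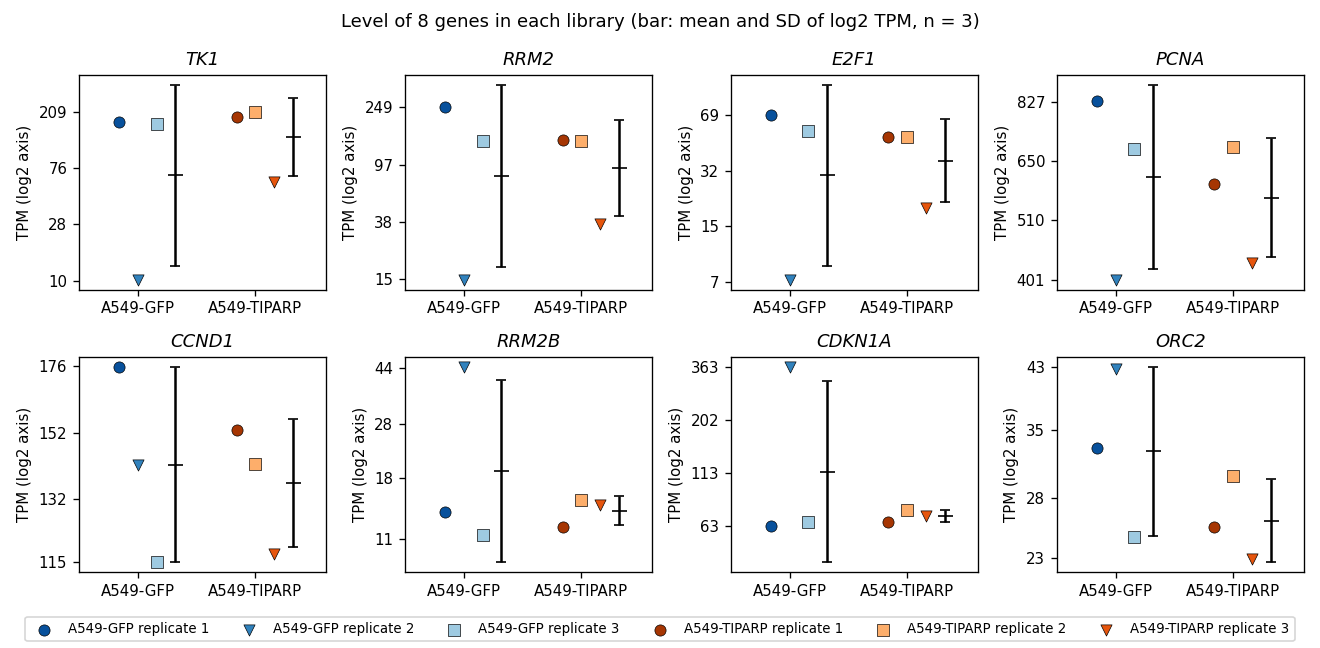
Level of 8 genes in TPM (log2 axis, scaled for each gene) in the libraries of both lines; black bars give the mean and SD of log2 TPM (n = 3). TK1, RRM2, E2F1 and PCNA are lowest in A549-GFP replicate 2 and second lowest in A549-TIPARP replicate 3, CCND1 is not, and RRM2B, CDKN1A and ORC2 are highest in A549-GFP replicate 2.

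The low library of each line lowered the members to related extents. All 43 members were lower in A549-TIPARP replicate 3 and all 43 in A549-GFP replicate 2 than the mean log2 TPM of the other libraries of the line, CCND1 in A549-GFP replicate 2 by 1.001-fold only. Of the 13181 analysed genes 7326 were lower in A549-TIPARP replicate 3, 3668 in A549-GFP replicate 2 and 2943 in both. The median difference was -1.85 for A549-GFP replicate 2 and -1.26 for A549-TIPARP replicate 3, and it was past 2-fold for 36 and 32 members, respectively. Over all 13181 analysed genes the medians were 0.38 and -0.05, and 658 and 404 genes were past 2-fold lower. Across the 43 genes, which are not independent replicates and all come from the same 6 libraries, both differences had a Pearson r of 0.86 and a Spearman rho of 0.85. Across all analysed genes the coefficients were 0.60 and 0.54. For 38 of 43 members the difference was the lower one in A549-GFP replicate 2, compared with 22.5% of all analysed genes.

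**Figure D4:**
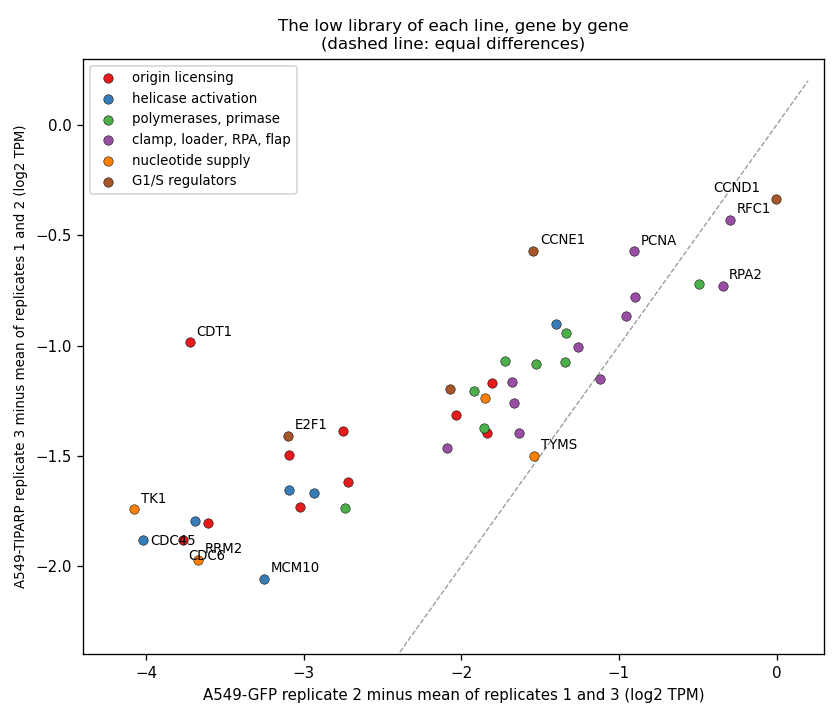
For each member, the log2 TPM of A549-GFP replicate 2 minus the mean of A549-GFP replicates 1 and 3 (horizontal) against that of A549-TIPARP replicate 3 minus the mean of A549-TIPARP replicates 1 and 2 (vertical), coloured by role. TK1, CDC45, CDC6 and RRM2 lie at the low end of both axes and CCND1 and RFC1 near 0, and 38 of 43 points lie above the dashed line of equal differences.

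The comparison of the lines asks whether A549-TIPARP and A549-GFP differed in the expression of these genes. With limma on log2(TPM + 1) over all analysed genes, 0 of 43 members passed an adjusted p of 0.05, as did 0.0152% of all analysed genes. At an unadjusted p under 0.05 the counts were 0 of 43 members and 3.85% of all analysed genes. The lowest adjusted p of a member was 0.994 in limma, and the lowest unadjusted limma p was 0.348, for RPA2. In the other limma fits tried, the adjusted p of the members ran from 0.583 to 1. On the deposited log2 TPM, 0 members were past 2-fold higher in A549-TIPARP and 0 past 2-fold lower, against 1.53% and 0.432% of all analysed genes. All A549-TIPARP libraries lay above all A549-GFP libraries for 0 members and below them for 0 members, against 5.36% and 3.54% of all analysed genes.

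No limma estimate of a member was larger than its standard error, although those of RPA2 and TK1 came close. On the deposited log2 TPM the mean was higher in A549-TIPARP for 29 members and lower for 14, while 40.1% of all analysed genes were higher, with a median difference of 0.10 over the members and -0.07 over all analysed genes. After a median-ratio rescaling of the libraries 36 members were higher, against 49.7% of all analysed genes. After quantile normalization 37 members were higher, against 45.6%, and with arithmetic means of TPM 13, against 35.2%. The differences ran from -0.26 for RPA2 to 0.99 for TK1. For TK1 the mean log2 TPM was 6.07 ± 2.35 in A549-GFP and 7.06 ± 1.01 in A549-TIPARP (SD, n = 3 per line), and the limma estimate on log2(TPM + 1) was 0.95 with a 95% confidence interval from -1.32 to 3.23. For RRM2 the means were 6.34 ± 2.16 and 6.52 ± 1.14 (SD, n = 3 per line), with a limma estimate of 0.17 and an interval from -2.01 to 2.35. These intervals include differences of 2-fold and more in either direction, so a line difference of that size was not detectable with these libraries. For the steadier members the intervals were narrower: for PCNA the limma estimate was -0.12, from -0.78 to 0.53, and for CCND1 it was -0.06, from -0.52 to 0.41. The median standard error was 0.52 over the members and 0.24 over all analysed genes on the log2 scale.

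Which library was left out decided the direction. Without A549-GFP replicate 2 all 43 members were lower in A549-TIPARP, against 42.6% of all analysed genes, with a median log2 difference of -0.55 (0.05 over all analysed genes), and RRM2 (-1.04) and MCM10 (-1.01) were past 2-fold lower, as were 0.296% of all analysed genes. Without A549-TIPARP replicate 3, 42 of 43 members were higher in A549-TIPARP, against 44.4% of all analysed genes, with a median of 0.51 (-0.04 over all analysed genes). There 5 members were past 2-fold higher (CDC45, CDT1, GINS2, MCM2 and TK1), as were 1.84% of all analysed genes. With both libraries left out, an alternative added after the data were seen, the median was -0.12 (0.06 over all analysed genes), the differences ran from -0.38 for RRM2 to 0.21 for TK1, and 32 members were lower and 11 higher, against 36.9% and 62.1% of all analysed genes. In that fit 0 members passed an adjusted p of 0.05 in limma and 0 were past 2-fold.

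**Figure D5:**
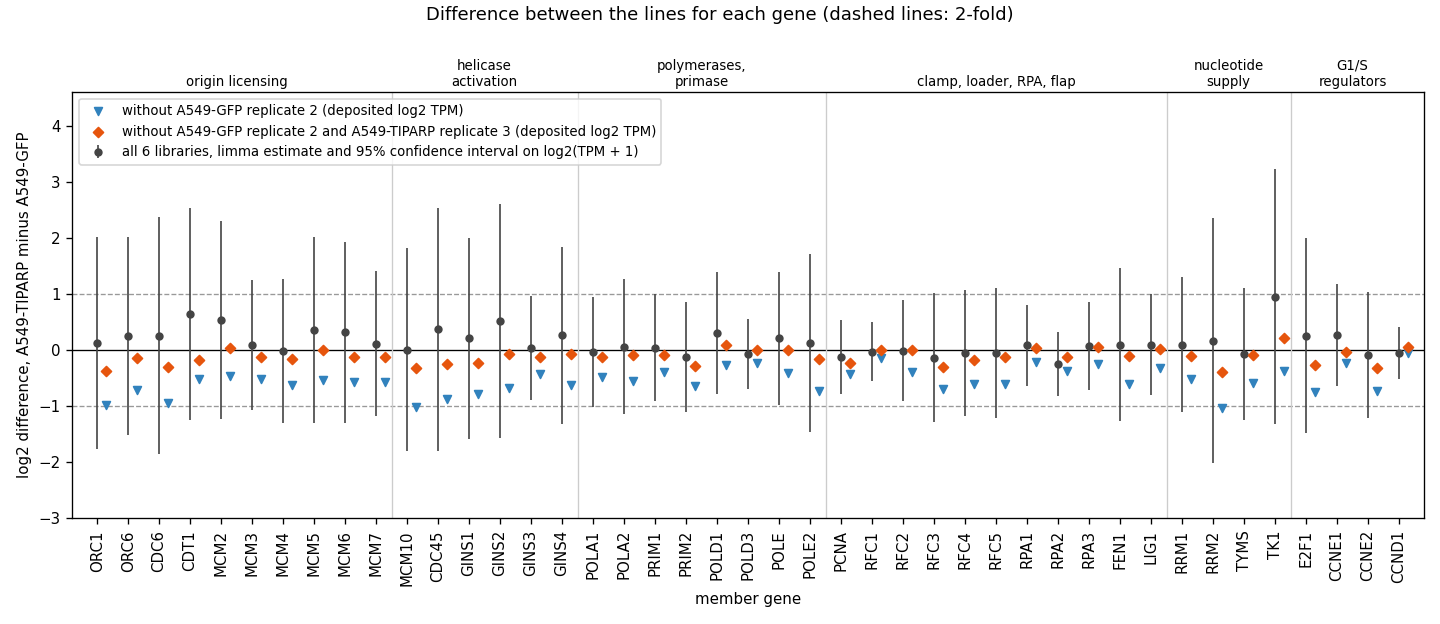
Difference between A549-TIPARP and A549-GFP on the log2 scale for each member: limma estimate with its 95% confidence interval from all 6 libraries (grey), and the difference of mean log2 TPM without A549-GFP replicate 2 (blue triangles) and without A549-GFP replicate 2 and A549-TIPARP replicate 3 (orange diamonds). All 43 intervals include 0, all 43 triangles lie below 0, and the diamonds lie between -0.38 and 0.21.

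Of 52 other genes of replication and the G1/S transition, 49 were analysed, while CCND2, CDKN2A and CDKN2B were at the floor in every library. Among the 49, 0 passed an adjusted p of 0.05 in limma and 0 an unadjusted limma p of 0.05, and the median log2 difference was -0.04. The largest differences upward were those of ASF1B (0.63), a histone chaperone, and TICRR (0.43), which helps to load CDC45, and downward those of CDKN1A (-0.71) and RRM2B (-0.46). Without A549-GFP replicate 2 each of these changed sign, to -0.66 for ASF1B, -0.80 for TICRR, 0.13 for CDKN1A and 0.15 for RRM2B. A549-GFP replicate 2 was below the mean of its line for 36 of these 49 genes and A549-TIPARP replicate 3 for 43. Over all 13181 analysed genes the counts were 3668 and 7326. ASF1B was at 62.0, 3.77 and 48.3 TPM in A549-GFP and at 52.2, 44.4 and 18 TPM in A549-TIPARP. TICRR was at 15.3 and 10.9 TPM in A549-GFP replicates 1 and 3, at the floor in replicate 2, and at 10.6, 11.1 and 3.47 TPM in A549-TIPARP. Both followed the pattern of the members.

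Inhibitors and proliferation markers named beside the members differed among themselves. CDKN1A, which encodes the kinase inhibitor p21, was at 62.8, 363 and 65.6 TPM in A549-GFP and at 65.7, 74.7 and 70.1 TPM in A549-TIPARP. It was thus 5.65 times as high in A549-GFP replicate 2 as in the geometric mean of the other A549-GFP libraries, and not raised in A549-TIPARP replicate 3, where the ratio was 1.0. CDKN1B, which encodes p27, was at 62.4, 89.4 and 54.6 TPM in A549-GFP and at 58.4, 52.3 and 77.1 TPM in A549-TIPARP, with the highest values in the libraries where the members were lowest. GMNN, which encodes the CDT1 inhibitor geminin, was at 76.7, 20.6 and 60.6 TPM in A549-GFP and at 59.0, 63.7 and 29.7 TPM in A549-TIPARP. MKI67, the proliferation marker Ki-67, was at 64.4, 3.31 and 42.0 TPM in A549-GFP and at 42.8, 47.6 and 13.8 TPM in A549-TIPARP. GMNN and MKI67 had the same low libraries as the members, as did the kinase inhibitor gene CDKN2C, picked after its values had been seen, at 37.8, 23.9 and 28.9 TPM in A549-GFP and 36.4, 31.4 and 20.6 TPM in A549-TIPARP. The part of CDKN1A in the levels of the replication genes was not tested.

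The 24 genes of G2/M and mitosis that were set beside the members spanned more, with a median of 15.4-fold against 4.10-fold. Their median deviation was -2.46 in A549-GFP replicate 2 and -1.09 in A549-TIPARP replicate 3. The low libraries were therefore not particular to S phase genes.

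The sequence just upstream of the start sites was examined because the members moved together between libraries. Windows of 250 bases upstream of a start in RefSeq (GRCh38.p14) were found for 35 of 43 members. They were searched on both strands for 4 spellings of the E2F site (TTTCCCGC, TTTCGCGC, TTTGCCGC and TTTGGCGC) and for CCAAT, the box bound by NF-Y, and a base could count toward both. At least 1 E2F spelling was found for 13 of 35 members (37.1%), compared with 5.72% of 10344 analysed genes and 3.40% of all 27305 genes in the table, or 2.79% of its 35116 windows of this length. These 13 were CDT1, E2F1, GINS2, LIG1, MCM3, MCM6, MCM7, PCNA, POLA1, POLA2, POLE, RFC3 and TYMS. CCAAT was found for 21 of 35 members (60.0%), compared with 41.2% of analysed genes and 37.0% of all genes in the table. It was found for 85% of the G2/M and mitosis genes with a window and for 50% of the other replication and G1/S genes. The members with an E2F spelling spanned a median of 4.10-fold between libraries and those without one 4.45-fold. Members without one of the 4 spellings may hold other spellings, so these medians do not compare genes with and without an E2F site. The members with CCAAT spanned a median of 8.06-fold and those without it 3.58-fold, both as descriptions. The spans of all analysed genes with and without CCAAT were not compared. A match is a string of letters and not a bound site.

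The windows of 5 members with an E2F spelling and of TK1 are shown, E2F1 as the regulator, CDT1, GINS2 and MCM6 as members with wide spans, PCNA as the most abundant and steady one, and TK1 as the member with the widest span. They are written 5′ to 3′ on the strand of the gene, at chr20:33686386-33686635 (minus strand), chr16:88803539-88803788 (plus strand), chr16:85688955-85689204 (minus strand), chr2:135876444-135876693 (minus strand), chr20:5126623-5126872 (minus strand) and chr17:78187053-78187302 (minus strand). Capitals mark the E2F spellings, in either orientation, in the first 5 and the CCAAT box, in either orientation, in TK1.
E2F1: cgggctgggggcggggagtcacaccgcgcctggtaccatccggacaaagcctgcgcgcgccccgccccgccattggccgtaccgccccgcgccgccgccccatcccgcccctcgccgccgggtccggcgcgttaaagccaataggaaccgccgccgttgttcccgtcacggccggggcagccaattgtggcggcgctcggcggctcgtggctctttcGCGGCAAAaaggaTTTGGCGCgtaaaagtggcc
CDT1: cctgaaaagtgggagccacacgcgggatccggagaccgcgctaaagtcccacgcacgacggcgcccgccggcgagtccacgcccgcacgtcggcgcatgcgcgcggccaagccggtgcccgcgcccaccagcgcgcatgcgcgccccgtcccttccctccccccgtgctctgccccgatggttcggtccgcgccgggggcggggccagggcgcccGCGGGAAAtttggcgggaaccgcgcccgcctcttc
GINS2: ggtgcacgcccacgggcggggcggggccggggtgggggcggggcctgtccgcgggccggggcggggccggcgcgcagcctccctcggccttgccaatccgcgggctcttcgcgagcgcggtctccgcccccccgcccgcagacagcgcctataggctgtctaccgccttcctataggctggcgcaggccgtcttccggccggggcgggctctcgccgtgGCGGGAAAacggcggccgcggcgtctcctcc
MCM6: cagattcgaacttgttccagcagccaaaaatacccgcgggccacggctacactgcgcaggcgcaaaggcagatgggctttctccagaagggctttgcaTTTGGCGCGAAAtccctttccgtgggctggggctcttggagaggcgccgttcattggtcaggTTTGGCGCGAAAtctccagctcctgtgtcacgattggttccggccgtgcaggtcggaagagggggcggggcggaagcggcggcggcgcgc
PCNA: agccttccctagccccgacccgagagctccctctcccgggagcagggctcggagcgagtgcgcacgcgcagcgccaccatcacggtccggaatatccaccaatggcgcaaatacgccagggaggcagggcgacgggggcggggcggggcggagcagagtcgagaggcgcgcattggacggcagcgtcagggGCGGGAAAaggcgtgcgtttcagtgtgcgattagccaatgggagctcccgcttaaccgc
TK1: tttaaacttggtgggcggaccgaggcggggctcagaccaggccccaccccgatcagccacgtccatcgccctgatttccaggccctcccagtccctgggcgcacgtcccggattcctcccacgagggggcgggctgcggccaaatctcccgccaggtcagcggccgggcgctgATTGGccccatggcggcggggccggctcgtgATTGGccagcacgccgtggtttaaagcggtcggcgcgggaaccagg

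In E2F1 the E2F spellings began 33 and 20 bases upstream of the start, in GINS2 31, in CDT1 35 and in PCNA 59 bases upstream. MCM6 held the letters TTTGGCGC 152 and 90 bases upstream, each overlapped by a TTTCGCGC on the opposite strand. GINS2 spanned 13.5-fold and PCNA 2.07-fold, and only 1 of the 2 windows of PCNA held E2F letters. Whether these letters bear on the span was not tested. In TK1, CCAAT on the opposite strand began 77 and 46 bases upstream, and neither window of TK1 in the table held one of the 4 E2F spellings, which says nothing of other spellings or of E2F itself.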

How the data were processed

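The authors aligned paired-end reads of TruSeq Stranded mRNA libraries to hg38 transcripts with Strand NGS and deposited 1 table of log2 TPM per gene and library. The deposited log2 values have a floor of 0. They hold no counts, so no count test was run, the depth of the 6 libraries is unknown and no counting interval is given.

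Samples were grouped by the GEO labels. Genes with more than 2 TPM in at least 1 of 6 libraries were kept (13181 of 53826 entries, keyed by Entrez ID). The lines were compared with limma 3.58.1 (R 4.3.3) with a variance trend on log2(TPM + 1), two-sided, with Benjamini-Hochberg adjustment over all analysed genes. The fit was checked on simulated data. Folds and deviations between libraries used the deposited log2 TPM, with no test. Groups of 3 allow no exact permutation p below 0.10, so none was used.

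The members and the gene lists were chosen with earlier results of these data known, although membership rests on symbols alone. By rule, values in every library were given for the highest and lowest member of each role, for E2F1, PCNA, CCND1 and RRM2, and for members that differed between the lines. Among the other genes the rule named TIPARP, CDKN1A, CDKN1B, GMNN, MKI67, RB1 and the 2 largest differences each way. Overlapping genes were read from GENCODE 44 and promoter windows from RefSeq (GRCh38.p14). The alternatives tried were other pseudocounts, filters, scalings, weights, a replicate block, arithmetic means, a 1.5-fold limit and leaving out each library. A leukocyte marker is not reported here.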

Additional observations from a re-analysis of the deposited data

How the results depend on the processing

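Over all analysed genes, 2 passed an adjusted p of 0.05 in limma. The count was 1 with no filter on low values, 4 with array quality weights, 1 with the replicate number as a block, and 1 to 3 with 1 library left out. The count of members that passed was 0 in each of the 17 alternative limma fits. Members past 2-fold numbered 0 with all libraries, 1 after median-ratio rescaling (TK1; 1.99% of all analysed genes), 1 after quantile normalization (TK1; 1.89%), and 2 at a 1.5-fold limit (CDT1 and TK1; 8.72%). With 1 library left out they numbered 0 to 8, namely 8 without A549-GFP replicate 1, 2 without A549-GFP replicate 2, 4 without A549-GFP replicate 3, 5 without A549-TIPARP replicate 3 and 0 without A549-TIPARP replicate 1 or 2. In the same order of the first 4, the members were past 2-fold higher, lower, higher and higher in A549-TIPARP, as were 2.46%, 0.296%, 2.01% and 1.84% of all analysed genes. The median log2 difference of the members was 0.10 with all libraries and ran from -0.55 (without A549-GFP replicate 2) to 0.51 (without A549-TIPARP replicate 3), with 0.50 without A549-GFP replicate 1, 0.36 without A549-GFP replicate 3, -0.08 without A549-TIPARP replicate 1 and -0.12 without A549-TIPARP replicate 2. It was -0.05 with arithmetic means, 0.17 after median-ratio rescaling and 0.21 after quantile normalization. For TIPARP the call was lost with no filter (limma adjusted p = 0.0965), with the replicate block (0.513), without both low libraries, and without any 1 library other than A549-GFP replicate 2 (0.0526 to 0.192). Why the settings differ was not tested.

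The labels number the libraries Exp1 to Exp3 in both lines without saying what the number marks. Deviations of same-numbered libraries from the means of their lines correlated at 0.41, -0.49 and -0.36 across genes, and not every library correlated best with its own number, the highest value being 0.60 for A549-GFP replicate 2 with A549-TIPARP replicate 3. Such deviations cancel out within a line, so an outlying library in each line weighs on every correlation. The correlations thus cannot decide whether a number marks a shared day or batch. With the replicate block, 414 genes had an unadjusted p under 0.05 in limma, against 508 without it. The block also leaves less information for estimating the spread, so these counts do not decide it either. The unknown depth limits the members near the floor most, such as CCNE2.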
